A study of Bos taurus with 8 samples.

Results

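The protein part of the cytosolic ribosome was followed in neutrophils of cows around calving. The genes were chosen by name: RPSA, RPLP0, RPLP1, RPLP2 and every RPL or RPS symbol followed by a number, with an optional A, X or Y. Their probes numbered 243 of the 43653 on the array and covered 74 genes, 44 of the large subunit (148 probes) and 30 of the small subunit (95 probes). RPL22 and RPS14, the other 2 of 76 such symbols in the gene table, had no probe. A gene had 1 to 8 probes, and 66 genes had more than 1.

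Blood was taken from the jugular vein of female Holstein Friesian cows, neutrophils were isolated, and their total RNA was labelled with Cy3 for 1-colour bovine arrays made by Agilent. There were 4 arrays of samples from 14 d before the expected calving date (C-14, "before calving") and 4 from 7 d after calving (C+7, "after calving"), and no treatment, genotype or age is labelled. The series text names 3 cows, and which cow each array came from is not labelled, so p-values measure the spread between arrays, some of which share an animal or its material. The 4 arrays before calving lay on 1 slide and the 4 after calving on another, each with its own scan, and 0 of 2 slides held both times. Slide, scan and time cannot be told apart in any difference given here.

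The ribosome translates messenger RNA in the cytosol. Its small subunit decodes the message, its large subunit joins amino acids, and a stalk made of RPLP0, RPLP1 and RPLP2 on the large subunit recruits the translation factors that use GTP. Ribosomal protein mRNAs start with a tract of pyrimidines through which mTOR signalling controls their translation, so mRNA level and protein output can part. Neutrophils leave the bone marrow with their granule proteins already made and are known for low rates of protein synthesis and low RNA content. Mammalian genomes hold many processed copies of ribosomal protein genes, and a probe may also read near-identical copies. Whether it did was not tested.

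A probe counted as detected on an array where the extraction software had marked it well above background. Ribosomal protein probes were detected far more often than probes at large. Before calving 107, 70, 118 and 59 of the 243 were detected on replicates 1 to 4 (44.0, 28.8, 48.6 and 24.3%), against 9.49, 5.42, 10.3 and 1.74% of all probes. After calving 106, 113, 105 and 5 were detected (43.6, 46.5, 43.2 and 2.06%), against 5.04, 5.2, 6.29 and 0.887% of all probes. Replicate 4 of each time was the dimmer array, and only the other 6 arrays had over 2000 detected probes of any kind. Of the 5 ribosomal protein probes detected on replicate 4 after calving, 4 lay 3 mm or more from the edge of the array and none under 2 mm.

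The labelled cell type was checked against fixed marker genes. Of the 11 neutrophil marker genes on the array, 9 were detected on at least 1 array, and S100A8 and CAMP on none. The same count was 8 of 10 for T cells, 3 of 7 for NK cells, 3 of 3 for B cells and 3 of 5 for monocytes. It was 1 of 2 for eosinophils, 3 of 6 for red cells and 0 of 2 for platelets, so it does not single out neutrophils. Only 2 neutrophil genes, S100A12 and CXCR1, had a probe detected on all 6 brighter arrays. S100A12, which neutrophils store in large amounts, was bright on every one of the 6 brighter arrays, with scaled log2 signals of 3.489, 4.596 and 3.778 before and 6.42, 6.19 and 6.12 after calving. Probes of T cells (CD247, CD4), B cells (CD79A), monocytes (CSF1R, LYZ), eosinophils (ALOX15) and red cells (HBA) were also detected on all 6 brighter arrays, while no NK cell or platelet marker was.

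Detection of the ribosomal protein probes followed their place on the array. The spotted area measured 10.8 by 19.5 mm, and each probe was given its distance to the nearest edge. Of the 72 ribosomal protein probes under 1 mm from an edge, 47 (65.3%) were detected on all 6 brighter arrays. The share was 18 of 59 (30.5%) at 1 to 2 mm, 1 of 44 (2.27%) at 2 to 3 mm and 0 of 68 from 3 mm inwards. All probes showed the same order at a lower level, with 5.93, 2.93, 0.798 and 0.29% in the same zones.

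**Figure D1:**
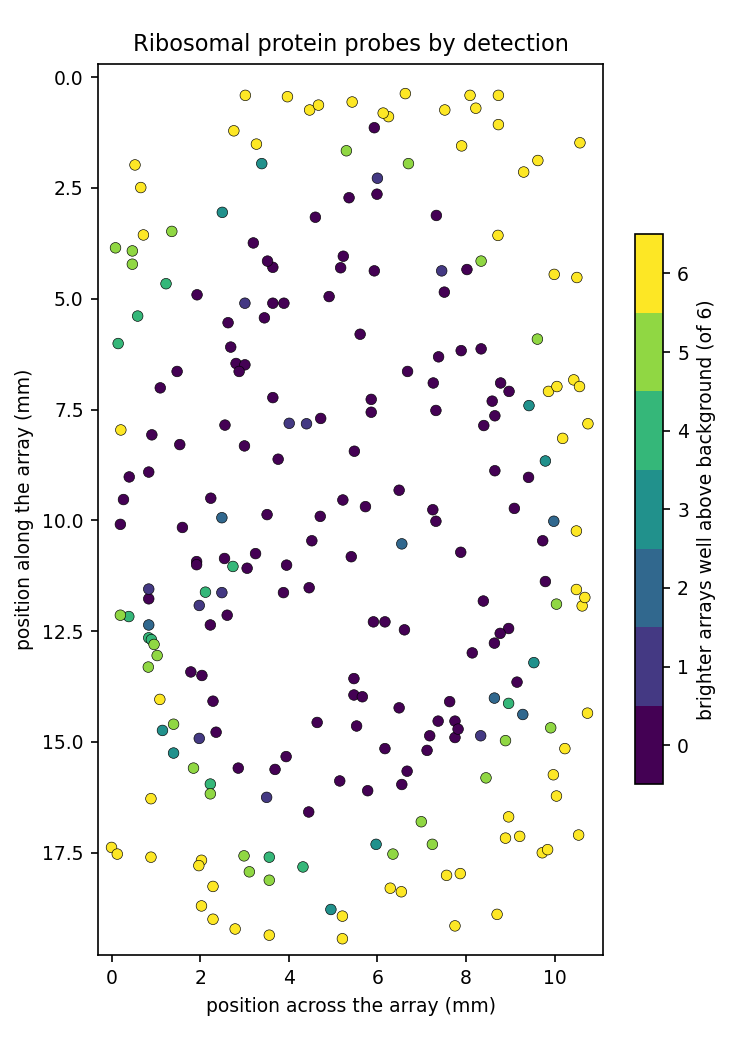
Position of the 243 ribosomal protein probes on the array, in mm, coloured by the number of the 6 brighter arrays on which each was well above background. Probes detected on all 6 lie along the edges, and none of the 68 probes 3 mm or more from an edge was detected on all 6.

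The pattern held at both times. Under 1 mm from the edge 59, 47, 63 and 41 of 72 ribosomal protein probes were detected before calving and 64, 63, 57 and 0 after calving, by replicate. From 3 mm inwards 2, 1, 1 and 0 of 68 were detected before and 0, 2, 1 and 4 after. Replicate 4 after calving was the exception: it detected no ribosomal protein probe within 1 mm of the edge.

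**Figure D2:**
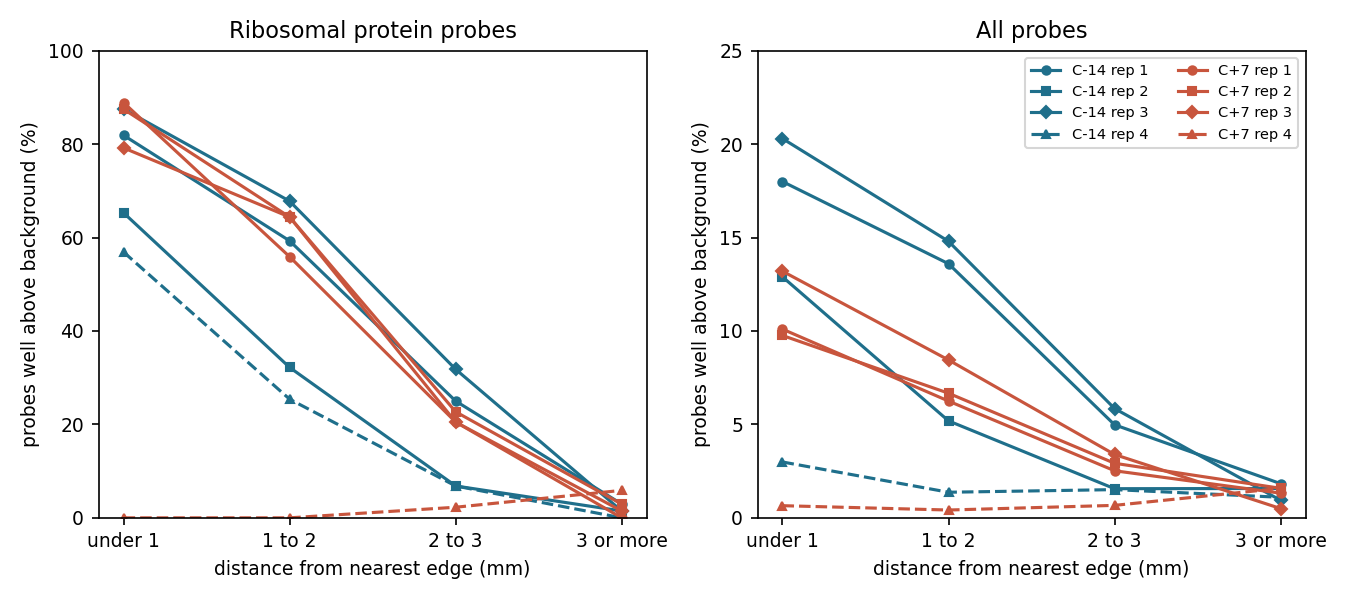
Share of probes well above background (%) by distance from the nearest edge (mm), for ribosomal protein probes on the left and all probes on the right, with 1 line per array and different vertical scales. On 7 arrays the ribosomal protein share drops from between 56.9 and 88.9% under 1 mm to between 0 and 2.94% at 3 mm or more; C+7 replicate 4 rises from 0 to 5.88%.

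The same gene could look present or absent by probe, and this went with position. The part of other features of the probes was not tested. In 49 genes with probes on both sides of 2 mm, the outer probes were detected on more of the 6 arrays, on average, than the inner ones in 46, on as many in 1 and on fewer in 2. Of the 104 outer probes 51 were detected on all 6 arrays and 19 on none. Of the 85 inner probes 1 was detected on all 6 arrays and 66 on none. RPL10A, a protein of the mobile L1 stalk, is an example. Its probe 0.27 mm from the edge was detected on 6 arrays. Its probes at 2.69 and 1.79 mm were detected on none, although the latter also lay on the outer side.

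Most probes of the genes that were never detected lay away from the edge. On no array was any probe detected for 13 genes, among them RPL5, RPL7A, RPL11, RPL14, RPL19, RPL24, RPL26, RPL27A, RPL32, RPS4X and RPSA. They had 27 probes, 24 of which lay 2 mm or more from the edge and 1 under 1 mm. RPL5 and RPL11, which carry 5S ribosomal RNA and bind MDM2, belong to this group, with 5 probes and 1 probe. RPL32 and RPL7A had a single probe each, at 1.14 and 1.99 mm. RPSA, also known as the laminin receptor, had a single probe 4.84 mm from the edge. These genes have no measured level here, which is no evidence that they were not expressed.

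The subunits did not part in detection near the edge. Under 1 mm, 65.0% of large subunit and 65.6% of small subunit probes were detected on all 6 brighter arrays. At 1 to 2 mm the shares were 37.2% of 43 and 12.5% of 16 probes. On whole arrays the large subunit share was between 1.35 and 51.4% and the small subunit share between 3.16 and 45.3%, and the large subunit share was the higher one on 7 of 8 arrays.

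Over the 6 brighter arrays, few ribosomal protein signals differed between the times beyond the spread between arrays. The difference was fitted with limma on log2 of the background-subtracted signal, less each array's 75th percentile over detected probes; this is the scaled log2 signal. Tested were the 1091 probes detected on all 6 arrays, 66 of them ribosomal (43 probes of 29 large subunit genes and 23 of 18 small subunit genes). Of the 1091, 43 (3.94%) passed a Benjamini-Hochberg adjusted p of 0.05, 17 higher (1.56%) and 26 lower (2.38%) after calving. Among the 66 ribosomal protein probes 1 passed (1.52%), higher after calving, and 0 passed as lower. Before adjustment, 9 of the 66 (13.6%) had a p below 0.05, against 21.8% of all tested probes. When each array was instead scaled by its 75th percentile over all probes, the median of all tested probes moved to -0.72 and 4 probes passed as higher and 90 as lower; with normexp background correction 14 and 7 passed. In the authors' series matrix, where 59 of the ribosomal protein probes had values on all 6 arrays, 47 were above 0, with a median of 1.56 beside 1.43 for all tested probes.

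The median ribosomal protein difference was -0.12 on the log2 scale, with 28 probes above and 38 below 0, beside -0.08 for all tested probes. The differences ran from -1.37 to 2.37. The spread between arrays of 1 time was no wider than elsewhere, with a median SD of 0.42 against 0.49 for all tested probes. The times did not overlap for 3 ribosomal protein probes that were higher after calving (4.55%, against 10.1% of all tested) and for 12 that were lower (18.2%, against 18.1%).

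**Figure D3:**
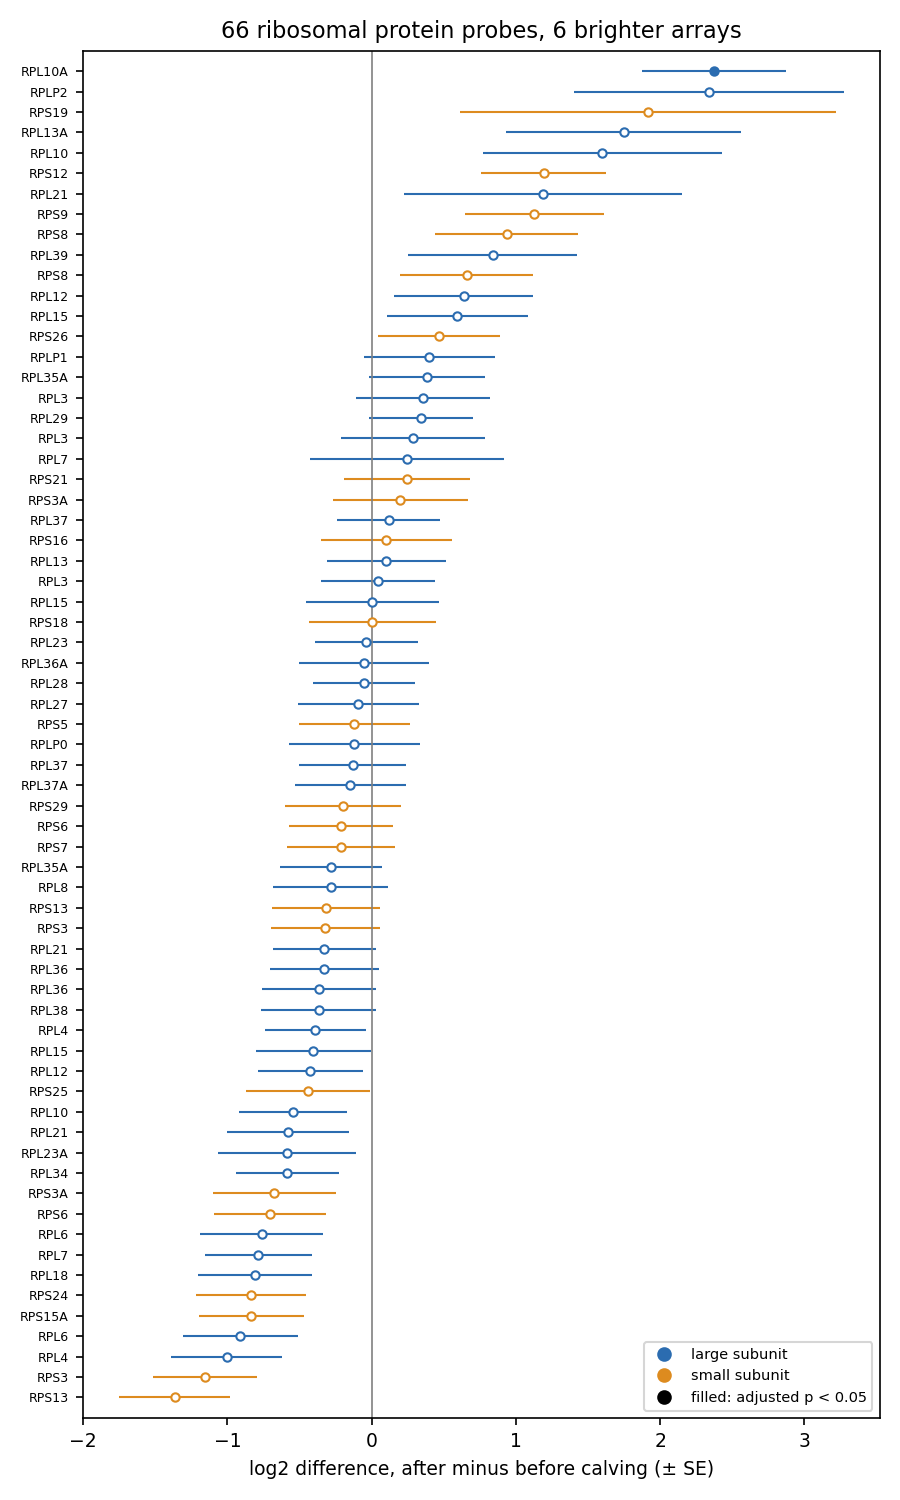
Log2 difference (after minus before calving, with its SE from limma, 3 arrays a time) of the 66 ribosomal protein probes tested on the 6 brighter arrays, sorted, large subunit in blue and small subunit in orange. RPL10A alone is filled (adjusted p under 0.05); most probes lie between -1 and 1.

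The median difference was -0.09 for large subunit probes (18 above and 25 below 0) and -0.20 for small subunit probes (10 above and 13 below). The gap between these 2 medians was 0.11. On single arrays the large subunit median signal less the small subunit median signal was 0.25, -0.04 and 0.10 before calving and 0.05, 0.44 and -0.12 after. Its SD between arrays of the same time was 0.23. The arrays of the 2 times overlap in this measure.

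Of the stalk, RPLP0, its anchoring protein, had scaled log2 signals of -0.22, 1.33 and 0.86 before calving and 0.30, 0.45 and 0.86 after, at its only probe tested. The times overlapped, and the difference was -0.12 ± 0.45 (SE, n = 3 arrays a time; limma adjusted p = 0.90). RPLP1 had 2.003, 2.046 and 3.056 before and 2.06, 3.17 and 3.08 after, a difference of 0.40 ± 0.46 (SE; limma adjusted p = 0.66), again with overlap.

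RPLP2, which pairs with RPLP1, had 0.996, -2.827 and 1.652 before and 2.11, 2.74 and 1.99 after. All 3 arrays after calving were higher, but replicate 2 before calving lay far below the rest. The difference of 2.34 ± 0.94 (SE) did not pass (limma adjusted p = 0.18). It was 0.95 without that array, and without C-14 replicate 3 it was 3.19 and passed (limma adjusted p = 0.016).

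RPL10A was the only ribosomal protein probe past the threshold. Its signals were -3.39, -3.64 and -1.86 before and -0.94, -0.63 and -0.20 after calving. All 3 later arrays lay above all 3 earlier ones, and the probe was below the 75th percentile of detected probes on every array. Before calving it also lay below the median of all tested probes (-1.55, -1.42 and -1.46). After calving it lay above that median (-1.57, -1.52 and -1.47). The difference was 2.37 ± 0.50 (SE, 5.18-fold; limma adjusted p = 0.031). The call was lost in 4 of 6 fits that left out 1 array (without C-14 replicate 1, or without C+7 replicate 1, 2 or 3; differences 2.16, 2.55, 2.39 and 2.18, with limma adjusted p = 0.073, 0.10, 0.13 and 0.11), and in the authors' series matrix the sign was the opposite, at -0.50.

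Among the other large subunit proteins, RPL13A, which can leave the ribosome and repress translation in interferon-treated myeloid cells, had 3.75, 0.21 and 3.35 before and 3.48, 4.06 and 5.01 after. Its difference of 1.75 ± 0.82 (SE; limma adjusted p = 0.24) came to 0.63 without C-14 replicate 2. RPL4, which lines the exit tunnel of the nascent chain, had 2 tested probes. The one 1.87 mm from the edge gave -0.47, -1.15 and -0.49 before and -1.61, -1.47 and -2.05 after, a difference of -1.01 ± 0.38 (SE; limma adjusted p = 0.16).

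That RPL4 probe did not overlap between the times, nor did the other tested probe of RPL4, at -0.39 ± 0.35 (SE; limma adjusted p = 0.54). RPL6 gave 1.05, 2.21 and 1.68 before and 0.68, 0.66 and 0.86 after at its lower probe. The difference was -0.91 ± 0.40 (SE; limma adjusted p = 0.22), without overlap.

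Of the small subunit, RPS19, whose loss in people causes Diamond-Blackfan anaemia, had the next highest difference after RPLP2, with 2.87, -3.13 and 3.07 before and 2.69, 2.57 and 3.30 after. Here 5 arrays were alike and replicate 2 before calving was low. The difference was 1.91 ± 1.30 (SE; limma adjusted p = 0.41), and without that array it was -0.12 (limma adjusted p = 0.87).

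RPS13, a protein of the body of the subunit, gave the lowest difference of all 66. Its probe 1.21 mm from the edge read -0.55, -0.50 and -0.25 before and -2.31, -1.68 and -1.40 after calving, without overlap. The difference was -1.37 ± 0.38 (SE; limma adjusted p = 0.075), while its other probe gave -0.32 ± 0.38 (SE; limma adjusted p = 0.68).

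RPS3, at the entry of the mRNA channel and also a binding partner of NF-kappa-B, gave 2.07, 2.59 and 2.02 before and 1.19, 0.98 and 1.04 after at its probe 0.44 mm from the edge. The times did not overlap and the difference was -1.16 ± 0.36 (SE; limma adjusted p = 0.10). Its brighter probe gave -0.32 ± 0.38 (SE; limma adjusted p = 0.675) with overlapping times.

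One array decided several of the highest differences. On C-14 replicate 2, 7 of the 66 ribosomal protein probes (10.6%) lay more than 2 log2 units below the median of the other 5 arrays, against 68 of 1091 (6.23%) of all tested probes. They were RPS19 (-6.00), RPLP2 (-4.82), RPL21 (-4.06), RPL10 (-3.76), RPL13A (-3.54), RPL10A (-2.70) and RPL39 (-2.20). On the other 5 arrays 1 ribosomal protein probe in all lay as far below. This array also detected the fewest ribosomal protein probes of the 6.

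Detection itself differed in the same way. On all 3 brighter arrays after calving but not on all 3 before, 29 ribosomal protein probes (11.9%) were detected, and 2 (0.823%) the other way round. For 25 of the 29 the missing array was C-14 replicate 2 alone. Among all probes the counts were 441 (1.01%) and 693 (1.59%). For 330 of those 441 the missing array was likewise C-14 replicate 2 alone.

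Testing the probes detected at either time, with every signal below a common floor raised to it, gave 2204 probes. Of these 113 passed (5.13%), 42 as higher (1.91%) and 71 as lower (3.22%). The floor also raised some detected signals. Of the 97 ribosomal protein probes (54 genes) 2 passed (2.06%), 1 in each direction. A second RPLP1 probe read -3.27, -3.54 and -0.75 before calving, and 1.92, 2.17 and 2.10 after. It passed with a fitted difference of 4.58 (limma adjusted p = 0.043), but the middle value before calving was not detected and set at the floor, so that size rests on an assigned value. The filter let this probe in only through the arrays after calving, where it was higher, so its call is no support for a rise. The RPLP1 probe detected on every brighter array gave a difference of 0.40. The lower RPS3 probe fell by 1.16 (limma adjusted p = 0.042). RPL10A, detected on C-14 replicate 2 but raised there to the floor, did not pass here.

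Where a probe lay on the array also went with how it differed between the times. For each tested probe the median difference of the 20 nearest tested probes was taken, with ribosomal protein probes left out as neighbours. For probes of other genes, a neighbour could be of the same gene. Around ribosomal protein probes the neighbours lay within a median of 0.74 mm and at most 3.16 mm. Over the 66 ribosomal protein probes the probe's own difference and its neighbours' median had a Pearson correlation of 0.68 and a Spearman correlation of 0.62, and over all 1091 tested probes the Pearson correlation was 0.54. These are descriptions without a p, since neighbours share arrays and surroundings. The neighbours of RPL10A had a median of 1.095 and reached as far as 1.63 mm. Those of RPLP2 had a median of 0.68 and reached 1.15 mm. The medians were -0.64 around RPS3 (lower probe) and -0.64 around RPS13 (lower probe).

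**Figure D4:**
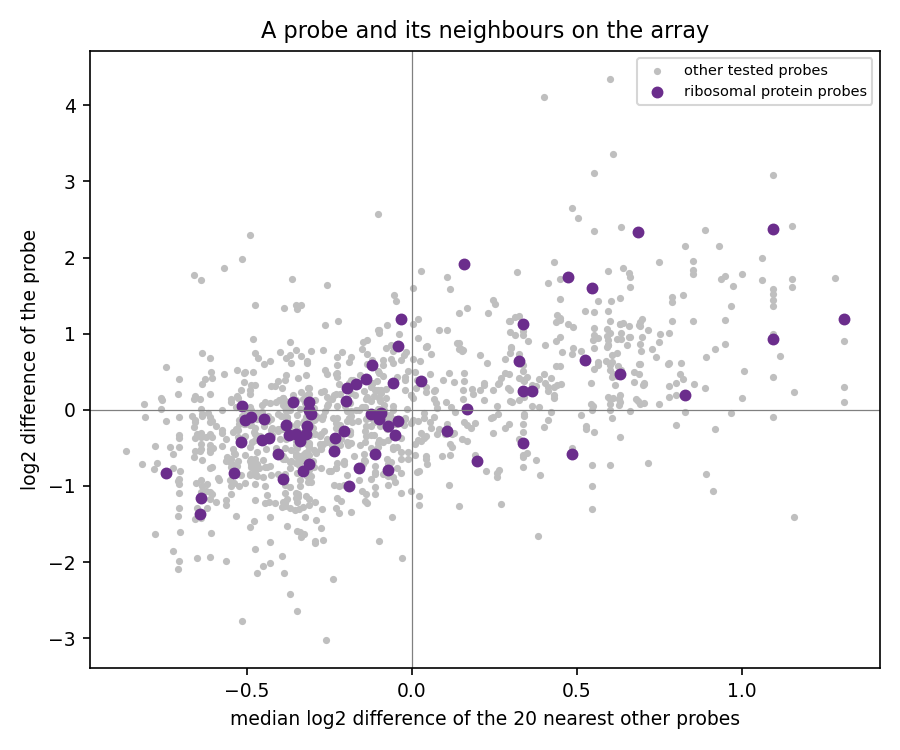
Log2 difference (after minus before calving) of each probe tested on the 6 brighter arrays against the median log2 difference of its 20 nearest tested probes outside the ribosomal protein genes. Ribosomal protein probes (purple, Pearson correlation 0.68) and other probes (grey) both slope upwards; the neighbour medians of ribosomal protein probes run from -0.74 to 1.31.

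Each probe was then scaled to its own neighbourhood, by subtracting on each array the median of those 20 neighbours. This setting was added after the position pattern had been seen. The SD between arrays of 1 time fell in the median from 0.42 to 0.25 for ribosomal protein probes. Now 173 of 1091 probes passed (15.9%), 79 as higher and 94 as lower, and 5 of the 66 ribosomal protein probes (7.58%). The ribosomal protein median was 0.08, beside 0.075 for all, with 37 above and 29 below 0. By subunit the medians were 0.17 (large) and -0.08 (small).

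On this local scale 2 large subunit probes were higher after calving, of which neither stood apart on the whole-array scale (0.10 for RPL13 and 0.045 for RPL3). RPL13 read 3.41, 3.33 and 3.23 before and 4.19, 4.02 and 3.87 after, a rise of 0.70 ± 0.17 (SE; limma adjusted p = 0.040). RPL3, which shapes the peptidyl transferase centre, rose by 0.75 ± 0.16 (SE; limma adjusted p = 0.030) at its probe 1.07 mm from the edge, from 2.66, 2.62 and 2.82 to 3.38, 3.41 and 3.56. Its other tested probes gave 0.73 (limma adjusted p = 0.074) and 0.002 (limma adjusted p = 0.99).

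The other 3 were lower. RPL23A, a docking site for the signal recognition particle at the tunnel exit, read 3.68, 4.03 and 3.48 before and 2.48, 2.20 and 2.65 after (-1.29 ± 0.22, SE; limma adjusted p = 0.017). On the whole-array scale this probe, 0.01 mm from the edge, gave -0.59 (limma adjusted p = 0.51) with overlapping times. Its neighbours had a median of 0.48. RPL4 fell by 1.06 at 1 of 2 tested probes (limma adjusted p = 0.012), and RPS13 fell by 0.91 at 1 of 2 (limma adjusted p = 0.019). The call for RPL10A was lost, at 1.16 ± 0.65 (SE; limma adjusted p = 0.27), and the lower RPS3 probe came to -0.08.

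Probes of 1 gene lie on the same arrays, so their gap within an array does not depend on the scaling of whole arrays. There were 97 such pairs of tested probes on the array, 19 of them in 16 ribosomal protein genes. No pair of 97 passed the limma test (0%), so 0 of the 19 did; before adjustment 2 ribosomal pairs and 9 in all had a p below 0.05. In 8 of the 19 (42.1%) the probes differed in sign between the times, against 30.9% of all pairs. The median size of the gap between the 2 probes' differences was 0.59, against 0.41 in all pairs.

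The widest gap was in RPL10, a late-joining protein of the large subunit. Its probe 0.74 mm from the edge read 2.20, 2.97 and 2.51 before and 2.27, 1.86 and 1.90 after. Its probe at 0.90 mm read 0.60, -1.90 and 2.30 before and 1.69, 1.86 and 2.24 after. After calving both probes agreed to within 0.59 on each array, and before calving they were 4.87 apart on replicate 2.

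The next gaps were -1.77 in RPL21, 1.06 in RPL12, 1.05 in RPS13 and -1.03 in RPL7. RPL21 repeats the RPL10 pattern, with 6.07 between its probes on C-14 replicate 2 and between 0.73 and 1.95 on the other 5 arrays. In RPS13 the gap was 2.57, 3.35 and 2.74 before and 4.56, 3.61 and 3.63 after calving, without overlap. On the local scale 4 of all 97 pairs passed, and 2 of the 19 ribosomal pairs. These 2 were RPS13 (1.26 ± 0.21, SE) and RPL4 (1.315 ± 0.23, SE), each with a limma adjusted p of 0.021.

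**Figure D5:**
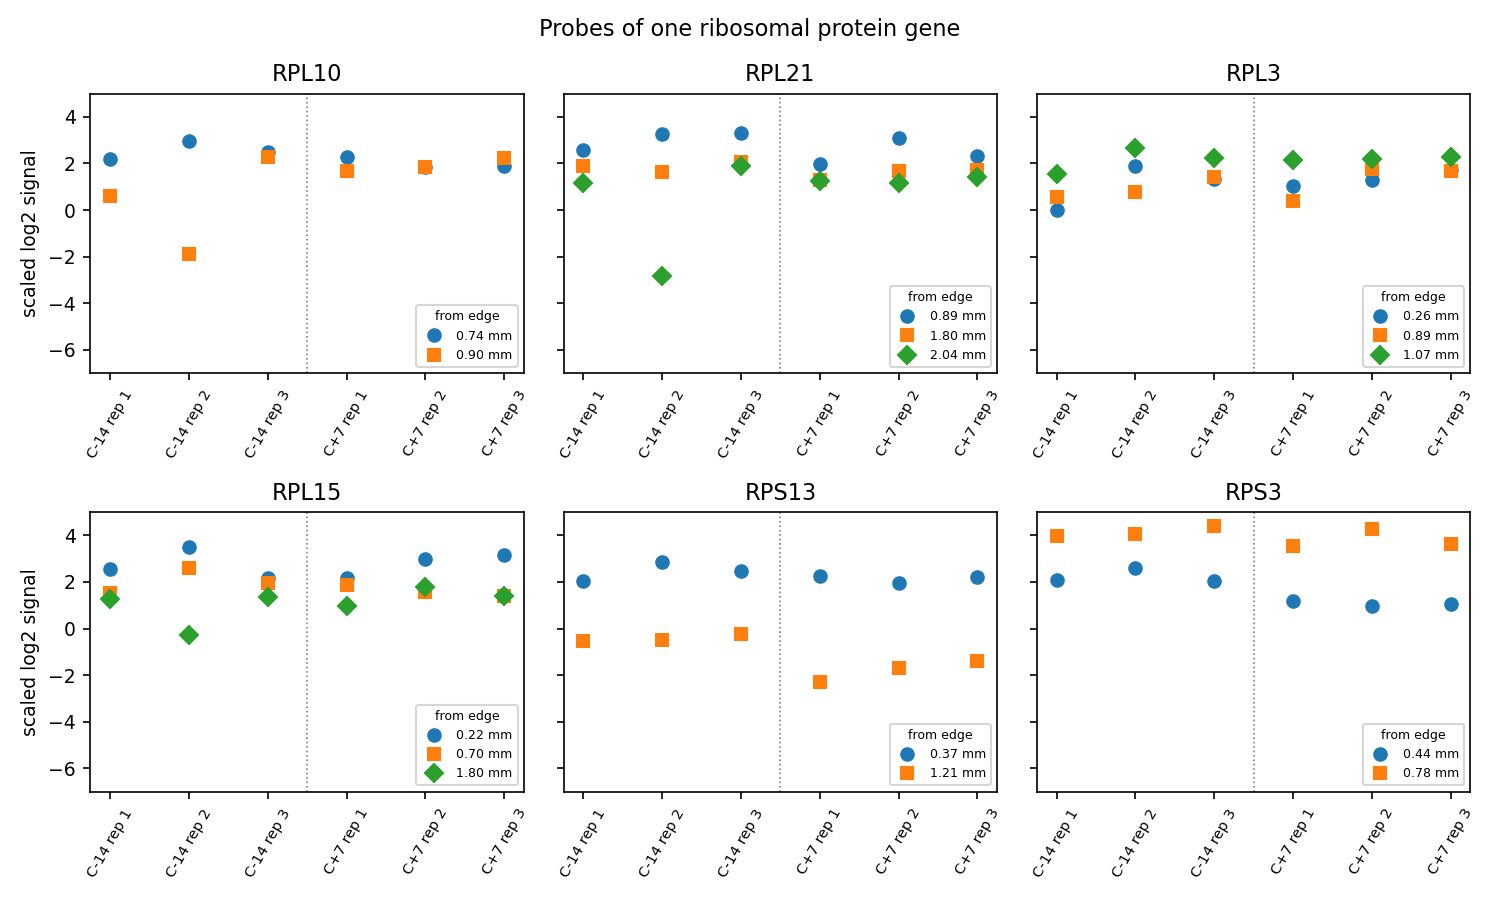
Scaled log2 signal of all tested probes of 6 ribosomal protein genes on the 6 brighter arrays, with each probe named by its distance from the edge (mm); the dotted line separates before from after calving. RPL10 and RPL21 each have 1 probe that drops on C-14 replicate 2 while the others do not, and the probes of RPS13 draw apart after calving.

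Over all 8 arrays the processed signal was used. No ribosomal protein probe was detected on all 8 arrays, because replicate 4 after calving detected almost none, so probes detected on all arrays of at least 1 time were tested: 470 probes, 51 of them ribosomal (39 genes). Not 1 of the 470 passed in limma (0%), hence none of the 51; before adjustment 7 (1.49%) had a p below 0.05, 0 of them ribosomal. All 51 entered through the arrays before calving alone, since C+7 replicate 4 detected none of them. Such a filter favours values that are higher before calving, so the counts that follow are no support for a fall. The median ribosomal protein difference was -0.37, with 12 of 51 (23.5%) above 0, beside -0.20 and 40.2% for all.

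That direction depended on single arrays. Without C-14 replicate 2 the ribosomal protein median was 0.22, with 32 of 51 above 0, and with array weights it was 0.53, with 43 above 0. In the series matrix it was 1.30, with 36 of 45 above 0. Without C+7 replicate 4, 47 of the 51 (92.2%) were above 0, against 63.6% of all tested probes, and the medians were 0.80 and 0.365, with 0 of 51 and 3 of 470 past the threshold. On C+7 replicate 4, 27 of the 51 probes sat at its lowest value, which is a bound and no level. RPLP2 had the highest difference (1.13), followed by RPL13A (1.015), RPS19 (0.83) and RPS12 (0.51). RPL21 (-1.27), RPS3 (-1.115), RPS3A (-1.10) and RPS24 (-1.03) had the lowest, and each of these 4 was at the lowest value on C+7 replicate 4.

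The other genes of translation were followed from lists. Of the elongation factors, which deliver tRNAs and move the ribosome along, 8 probes of 5 genes were tested on the 6 brighter arrays. All 8 differences were below 0 (median -0.56), against 54% of all tested probes (median -0.08), and 2 probes passed, both of EEF1A1, the factor that brings aminoacyl-tRNA to the ribosome. Of all tested probes 3.94% passed. One read -0.05, 0.55 and 0.23 before and -1.58, -1.52 and -1.36 after calving, and fell by 1.73 (limma adjusted p = 0.030). The other read 1.93, 3.20 and 2.35 before and 0.76, 0.73 and 0.79 after, and also fell by 1.73 (limma adjusted p = 0.043).

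The third EEF1A1 probe gave -1.30 (limma adjusted p = 0.095). On the local scale the first pair stood at -1.23 and -1.25 (limma adjusted p = 0.017 and 0.0073), lower than the neighbours of each, and both lost the call in the fits without C+7 replicate 1, 2 or 3, the second also without C-14 replicate 2. In the series matrix the 3 probes had the opposite sign (1.848, 1.496 and 1.503). Of the 8 elongation factor probes 6 were below 0 on the local scale, where EEF2 gave 0.13 and EIF5A 0.10. EEF1A1 mRNA carries the same kind of pyrimidine tract as the ribosomal protein mRNAs, whose median was -0.12.

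Of the initiation factors, which load the small subunit on mRNA, 9 probes of 7 genes were tested. Of these 8 were below 0 (median -0.86) and 2 passed, both of EIF4A2, an RNA helicase. They read -1.646, -0.999 and -0.723 before and -3.31, -3.00 and -2.55 after (fell by 1.83; limma adjusted p = 0.034), and -1.52, -0.67 and -1.30 before and -2.61, -3.37 and -3.45 after (fell by 1.98; limma adjusted p = 0.030). Both lay within 0.12 mm of the edge, and on the local scale they stood at -1.33 and -0.90 (limma adjusted p = 0.038 and 0.044). Leaving out C+7 replicate 1, 2 or 3 lost both calls, and in the series matrix, which has values for the second on all 6 arrays, that probe was 2.04. On the local scale 8 of the 9 were again below 0 and 5 passed as lower, the others being EIF1 at both its probes (-1.05 and -0.71; limma adjusted p = 0.044 and 0.040) and PABPC1 (-0.96; limma adjusted p = 0.026), against 94 of 1091 tested probes. EIF3D had the highest difference of the list, 0.98 (limma adjusted p = 0.29).

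Other mRNAs with a pyrimidine tract gave 5 tested probes, all below 0 (median -0.33) and none past the threshold, from TPT1 at -0.24 to NACA at -0.87. On the local scale VIM, at -0.27 on the whole-array scale, was 0.66 and passed as higher (limma adjusted p = 0.037), with the other 4 below 0. Of the mitochondrial ribosomal proteins 4 probes were tested, from MRPS15 at -1.40 (limma adjusted p = 0.053) to MRPS28 at 0.39, with none past the threshold; on the local scale MRPS15 was -1.01 and passed (limma adjusted p = 0.016). Ribosome biogenesis had 1 tested probe, the nucleolar NOP56 at 0.92, and the kinases and repressors of translation 1, ATF4 at -1.20. Neither passed on either scale. No probe of the other ribosome-associated proteins was tested.

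Blood cell markers differed between the times as well. CD247, the zeta chain of the T cell receptor, fell by 2.64 and 2.77 at its 2 probes (limma adjusted p = 0.019 for each), and CD4 gave -0.11. The summed signal of these 3 probes, in units of each array's 75th percentile, ran from 4.61 to 6.6 before and from 1.28 to 1.49 after calving. This sum counts CD247 at 2 probes, so it is no separate evidence on T cells. CD2 and CD3D were detected on no array. ALOX15 of eosinophils fell by 3.02 (limma adjusted p = 0.0043) and CSF1R of monocytes by 1.62 (limma adjusted p = 0.041), while S100A12 rose by 2.29 (limma adjusted p = 0.023). In the series matrix S100A12 was 0.997, and the 2 CD247 probes, ALOX15 and CSF1R were 1.08, 1.72, 2.34 and 0.73. CXCR1 of neutrophils gave -1.25, LYZ -0.35, CD79A -0.41 and HBA 1.83 (limma adjusted p = 0.11), none of them past the threshold, while HBA passed on the local scale (1.805; limma adjusted p = 0.024). In whole-cell RNA, fewer cells of a type and less of its RNA per cell cannot be told apart, and the part of these cells in the ribosomal protein and translation factor values was not tested.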

How the data were processed

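Per the file headers, the authors deposited Agilent scanner output (1-colour intensity, background-subtracted and processed; Feature Extraction 10.10.1.1, whereas the submitters' processing notes name 9.1). They also deposited a series matrix of log2 values, whose scaling is not stated. The members and lists were chosen with earlier results of these data known. Probes were named through RefSeq symbols (ARS-UCD2.0), control and outlier spots were dropped, spots of a probe were averaged, and the first spot gave the position. A probe was well above background if more than 0.5 of its spots were. Differences were fitted per probe with limma 3.58.1 in R 4.3.3 (two-sided, Benjamini-Hochberg over all tested probes, adjusted p 0.05), after testing on simulated data. The number of arrays limits precision. Named are members past the threshold, the 4 highest and 4 lowest differences of a fit, the stalk and RPSA, the 5 widest probe gaps, undetected genes (some are not reported here), and of other lists the genes past the threshold or at the extremes. LYZ, CXCR1 and the 7 probes low on 1 array were named after their values were seen. The planned filter over 8 arrays tested no member and was replaced. Normexp (offset 50) used the median signal, as the files used hold no mean signal. On C-14 replicate 3 the processed signal carries a surface correction. Alternatives covered scaling, filters, signal, weights, block and each array left out.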

Additional observations from a re-analysis of the deposited data

Results flagged for a closer look

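Of 36 groups of 4 arrays examined, 7 had an array far from the other 3 by Dixon's criterion at 95%. Chance gives this in about 1 in 20 independent groups. These groups were not independent: they reuse the same arrays and overlapping sets of probes, and include the 4 highest and 4 lowest probes. The 2 rates can therefore not be compared. On C+7 replicate 4, 2.06% of ribosomal protein probes were detected against 43.2 to 46.5% on the other 3 arrays after calving, 1.35% against 44.6 to 51.4% for the large subunit and 3.16% against 35.8 to 42.1% for the small subunit. Under 1 mm from the edge it detected 0% of them, against 79.2 to 88.9%. The lower RPS3 probe read -4.10 there in the values of all 8 arrays, against -0.16 to 0.46 on the other 3.

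On C-14 replicate 4, ribosomal protein probes made up 7.75% of all detected probes, against 2.58 to 2.96% on the other 3 arrays before calving. Under 1 mm from the edge they made up 11.9%, against 2.69 to 3.15%.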

How the results depend on the processing

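With 3 arrays a time, on slides that each hold 1 time, the count of 1 ribosomal protein probe past the threshold on 6 arrays stayed at 1 under 8 alternatives (percentile without ribosomal protein probes, quantile normalization, normexp, limma with trend and robust, replicate block, brightest probe of each gene, probes under 1 mm, without C-14 replicate 2) and moved under 13. It was 2 with the percentile over all probes (RPS3 and RPS13, both lower), with probes detected at either time and with array weights. It was 0 with no filter, with the series matrix, with the processed signal and with C-14 replicate 4 added, and 5 with local scaling; leaving out 1 array gave 0 to 4 (4 without C-14 replicate 3: RPL10A, RPLP2, RPL10 and RPS9). The median relative to all tested probes (-0.04) was 0.175 with probes detected at either time, -0.57 with normexp, 0.13 with the series matrix, 0.145 with the processed signal and 0.22 with C-14 replicate 4 added. RPL10A was -0.50 in the series matrix, where the ribosomal protein median was 1.56. All tested probes past the threshold numbered 43, but 94 with the percentile over all probes, 113 at either time, 96 with array weights, 21 with normexp, 5 with C-14 replicate 4 added, 1 with no filter, 0 with the series matrix or the processed signal, and 1, 0 and 1 without C+7 replicates 1, 2 and 3, and 77 without C-14 replicate 3. The cause was not tested.

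On 8 arrays 1 of 51 ribosomal protein probes passed with array weights, beside 14 of all 470 tested probes. Large minus small subunit (0.14) ran from -0.16 (without C-14 replicate 3) to 0.36 when 1 array was left out. Local scaling brought the ribosomal protein probe pairs past the threshold from 0 to 2 of 19, and all pairs from 0 to 4 of 97. With the replicate number as a block, 1 ribosomal protein probe on 6 arrays and 0 on 8 passed, and 13 probes in all on 6; the EEF1A1 and EIF4A2 calls were lost. Same-numbered arrays had correlations of 0.25, -0.26 and 0.26, so not every pair was above 0.1, and the numbers were not taken to pair the arrays.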
